A study of Mus musculus with 6 samples.

Results

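The solute carriers are the largest superfamily of membrane transporters, and 237 of the 18191 genes measured in the mouse aorta were taken as its members here. They were chosen by symbol and by level: the symbol had to be Slc, a number, 1 or more letters and a number, and the estimated read counts had to sum to at least 100 over the 6 libraries. Of the 343 genes with such a symbol, 100 had a lower sum and 7 were left out by name (Slc4a1, Slc6a2, Slc18a1, Slc18a2, Slc27a3, Slc39a1 and Slc50a1). Slc18a1, with a sum of 31, is counted in both. A further 11 genes carried an Slc symbol of another form. Just inside the threshold were Slc26a1, Slc16a4 and Slc24a4 with sums of 102.12, 107.73 and 108 counts, and just outside were Slc25a53, Slc6a12 and Slc16a14 with 98.77, 98.29 and 94.64. Because the counts chose the members, their levels are given as a description without a test. The sum took all 6 libraries without regard to genotype, but a gene could pass mainly through 1 library, as Slc10a4 and Slc29a4 did.

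RNA of the whole aorta was sequenced from male mice, with 3 wild type (WT) libraries and 3 Npr1+/- libraries, which the labels number 1 to 3 in either genotype. The Npr1+/- mice carry 1 copy of Npr1 disrupted by CRISPR-Cas9, in every tissue, and the other copy is intact. Npr1 encodes a receptor of natriuretic peptides, which relax vessels, and the comparison asks which transcripts of the vessel wall differ when 1 copy is lost. Age, strain and whether a library is 1 animal or a pool are not given in the sources used here, so the p-values measure only the spread between these libraries. The samples are bulk tissue, in which fewer cells of a type and less RNA per cell cannot be told apart.

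Solute carriers move amino acids, sugars, ions, metals, nucleotides, vitamins and lipids across membranes, by exchange, by facilitated diffusion or by coupling to a gradient of sodium or protons. Families are numbered by sequence. Most of family 25, all of which is called mitochondrial carriers here, sits in the inner mitochondrial membrane. Families 30 and 39 move zinc out of and into the cytosol, and family 35 carries nucleotide sugars into the Golgi apparatus. In the vessel wall, glucose and lactate carriers serve the energy supply of smooth muscle, exchangers of sodium, calcium, protons and bicarbonate bear on contraction and cell pH, and cationic amino acid carriers bring arginine to the endothelium. Fat around the aorta has its own set, such as the insulin-responsive glucose carrier Slc2a4 and the fatty acid carrier Slc27a1.

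Total estimated counts lay between 13510970 and 16664343 per library, of which the 237 members took between 0.929% and 1.28%. Levels are given in FPKM, which scales fragments by transcript length and library size, in the order of the replicate numbers. The unit was inferred from the values because the columns name none. Npr1 had 112.43, 153.33 and 151.51 FPKM in WT against 70.35, 109.92 and 132.95 FPKM in Npr1+/- (log2 fold change -0.41, standard error 0.27, edgeR unadjusted p = 0.178). Npr1+/- 3 was above WT 1, so the genotypes overlapped, while Npr1+/- was below WT in each of the 3 replicate numbers. With the replicate number as a block in the fit, the log2 fold change was -0.44 (standard error 0.15, edgeR unadjusted p = 0.0221, adjusted p = 0.311). WT 1 and Npr1+/- 1 stood apart from the other 4 libraries on the first principal component, which held 59.3% of the variance. In those 2 libraries the 10 smooth muscle markers summed to 23106 and 14290 CPM (counts scaled by library size) against 36679 to 41980 in the other 4, and all 10 were lower than in any of the other 4. The 8 markers of fat of both kinds summed to 7101 and 13055 CPM against 1597 to 3573, the 6 brown fat markers to 2795 and 2773 against 418 to 844, and the 6 red cell markers to 7553 and 6286 against 631 to 1313. The defining markers of aortic smooth muscle and endothelium were detected in all 6 libraries. The 13 neuron markers summed to 632 CPM in Npr1+/- 1 against 83.3 to 100.4 in the other 5, with Th, Dbh and Elavl4 at 0 in at least 1 of the other libraries.

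Mitochondrial carriers held the largest share of the members' summed FPKM in the aorta. The 237 members belonged to 45 families, their mean FPKM ran from 0.152 (Slc1a2) to 294 (Slc25a4) with a median of 5.82, and 16 members made up 50% of the summed FPKM. A mean of at least 10 FPKM was reached by 75 members, and 31 were under 1. The 39 mitochondrial carriers held 41.3% of the summed FPKM and the 44 carriers of amino acids and peptides 20.7%. By library, the mitochondrial carriers summed to 1974.5 FPKM in WT 1 and 2373.7 in Npr1+/- 1, against 1206.4 to 1370 in the others. The 34 carriers of inorganic ions, though close in number to the mitochondrial ones, held 6.34%, with a median of 3.16 FPKM against 16.5.

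**Figure D1:**
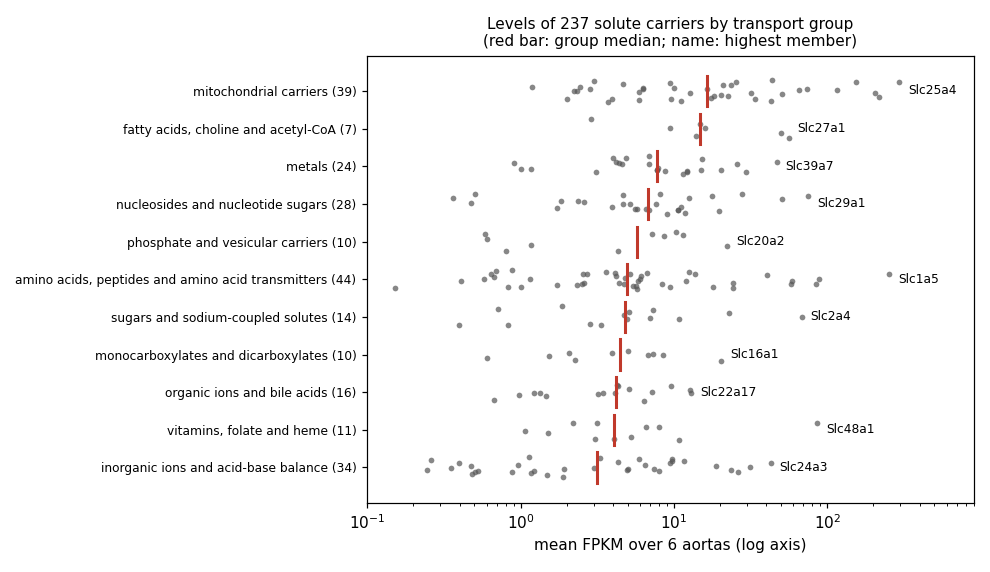
Mean FPKM over the 6 libraries (log axis) of each of the 237 members, by transport group with the number of members in brackets. Red bars are group medians and the highest member of each group is named: the mitochondrial carriers have the highest median, 16.5 FPKM, and the carriers of inorganic ions the lowest, 3.16.

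Among the mitochondrial carriers, the ADP/ATP exchanger Slc25a4, the isoform of muscle, had 299.6, 293 and 309 FPKM in WT against 272, 291 and 301 FPKM in Npr1+/-. The phosphate carrier Slc25a3, which supplies phosphate for ATP synthesis, had 215, 197 and 212 FPKM in WT against 261, 212 and 204 FPKM in Npr1+/-. These 2 levels differed little among the 6 libraries. The citrate carrier Slc25a1, which exports citrate for fatty acid synthesis, had 252, 79.9 and 105 FPKM in WT against 523, 143 and 128 FPKM in Npr1+/-. Both libraries numbered 1 were above the other 4 for Slc25a1, and its spread between libraries was wider than its distance to the second ADP/ATP exchanger Slc25a5 (99.8 to 239.9 FPKM) or to the glutathione carrier Slc25a39 (71.8 to 182 FPKM). The carnitine and acylcarnitine exchanger Slc25a20, which brings fatty acids in for oxidation, had 124, 25.01 and 33.4 FPKM in WT against 129, 39.9 and 39.02 FPKM in Npr1+/-. Its levels in WT 1 and Npr1+/- 1 were the highest by a wide margin.

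The amino acid carriers were led by the neutral amino acid and glutamine exchanger Slc1a5, with 258, 169 and 137 FPKM in WT against 491, 219 and 245 FPKM in Npr1+/-. Slc36a2, a proton-coupled carrier of small amino acids found in brown fat, had 164, 29.5 and 42.8 FPKM in WT against 183, 60.5 and 53.5 FPKM in Npr1+/-. Slc38a2, the sodium-coupled neutral amino acid carrier that answers to amino acid supply and cell volume, went the other way with 59.8, 104 and 108 FPKM in WT against 45.1, 94.5 and 93.3 FPKM in Npr1+/-, so that both libraries numbered 1 were high for the first pair and low for Slc38a2. The heavy chain Slc3a2, which brings several light chains to the surface, had a mean of 58.5 FPKM, its leucine-carrying light chain Slc7a5 4.78, the cationic amino acid carrier Slc7a1 6.13 and the taurine carrier Slc6a6 24.2. Slc6a6 spanned 21.8 to 26.8 FPKM over the libraries, a narrow range.

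Among the sugar carriers, Slc2a4, the insulin-responsive glucose carrier of muscle and fat, had 86.3, 26.1 and 45.8 FPKM in WT against 149, 57.5 and 45.7 FPKM in Npr1+/-. The basal glucose carrier Slc2a1 had 18.7, 25.9 and 27.9 FPKM in WT against 15.9, 25.6 and 22.7 FPKM in Npr1+/-, and it was lowest in both libraries numbered 1, where Slc2a4 was highest. Slc2a8, an intracellular glucose carrier, had a mean of 10.9 FPKM, the neuron-type glucose carrier Slc2a3 1.88 and the sodium-coupled myo-inositol carrier Slc5a3 2.85. Of the monocarboxylate carriers, the lactate and ketone body carrier Slc16a1 ranged from 7.84 to 41.2 FPKM and the lactate exporter Slc16a3 from 4.30 to 9.61. Slc16a1 was highest and Slc16a3 lowest in WT 1 and Npr1+/- 1.

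Carriers of fatty acids and choline were only 7, with a median of 14.8 FPKM. Slc27a1, which takes up long-chain fatty acids in fat and muscle, had a mean of 56.2 FPKM, the choline-transporter-like protein Slc44a2 49.8 and the choline carrier Slc44a1 15.97. The carnitine carrier Slc22a5 of the organic cation family had a mean of 12.8 FPKM, next to Slc22a17, a receptor for the iron-binding protein lipocalin, with 12.9, and the organic cation carrier Slc22a3 with 6.38. Slc22a17 and Slc22a5 did not differ beyond their spread over the libraries (11.4 to 14.6 and 9.54 to 18.7 FPKM).

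Ion exchangers of the vessel wall were led by Slc24a3, which exchanges sodium for calcium and potassium, with 46.04, 39.5 and 51.5 FPKM in WT against 41.9, 39.98 and 38.4 FPKM in Npr1+/-. The potassium and chloride cotransporter Slc12a4 followed with 26.6, 37.05 and 35.03 FPKM in WT against 20.8, 33.4 and 36.5 FPKM in Npr1+/-, and the anion exchanger Slc4a3, known from heart and brain, with 25.7, 31.8 and 29.1 FPKM in WT against 13.5, 23.3 and 32.9 FPKM in Npr1+/-. All 3 had overlapping genotypes, and Slc24a3 was the steadiest over the libraries. The sodium and calcium exchanger Slc8a1 had a mean of 3.31 FPKM, the sodium, potassium and chloride cotransporter Slc12a2 4.94, and the sodium bicarbonate cotransporters Slc4a7 and Slc4a4 6.48 and 5.95. The phosphate carriers Slc20a2 and Slc20a1 had means of 22.3 and 11.4 FPKM, and the vesicular polyamine carrier Slc18b1 10.4.

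Zinc carriers led the metal carriers. Slc39a7, which releases zinc from the endoplasmic reticulum, had 51.3, 48.5 and 45.1 FPKM in WT against 39.1, 45.4 and 51.9 FPKM in Npr1+/-, and the zinc carriers Slc39a13 and Slc30a9 had means of 29.5 and 25.9. Slc39a14, which takes up zinc, manganese and iron, had a mean of 20.3 FPKM and the zinc exporter Slc30a1 4.56, while the iron exporter Slc40a1 had only 0.907. The equilibrative nucleoside carrier Slc29a1, which takes up adenosine, had a mean of 75.01 FPKM, Slc35b1, which brings ATP into the endoplasmic reticulum, 50.8, and Slc35a4 27.7. Slc48a1, which moves heme out of the lysosome, was the highest carrier of vitamins and heme with 90.6, 89.7 and 95.8 FPKM in WT against 63.7, 85.04 and 89.9 FPKM in Npr1+/-, far above Slc49a4 with a mean of 10.9 and the sodium-coupled vitamin C carrier Slc23a2 with 7.98.

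More members separated WT 1 and Npr1+/- 1 from the remaining libraries than separated the genotypes. This was so for all genes tested as well. Of the 235 members tested, 72 (30.6%) were higher in both libraries numbered 1 than in any of the other 4, against 23.9% of all genes tested, and 61 (26%) were lower in both, against 24.1%. The mean CPM of the 2 libraries numbered 1 was at least 2 times that of the other 4 for 43 members (18.3%, against 9.88% of all genes), and at most 0.5 times for 6 (2.55%, against 2.50%). Of the 39 mitochondrial carriers, 21 were above in both libraries numbered 1 and 7 below, and 14 reached 2 times. Slc27a2, a very long-chain fatty acid carrier, had a ratio of 6.07, Slc1a3, the glutamate and aspartate carrier of glia, 4.11, and Slc25a42, which brings coenzyme A into mitochondria, 3.39. The summed markers of fat of both kinds had a ratio of 4.07 and those of brown fat 4.15, and their part in the carriers' levels was not tested. The 6 members at or under 0.5 were Slc6a7, Slc38a1, Slc38a11, Slc23a3, Slc38a3 and Slc24a4, 3 of them sodium-coupled neutral amino acid carriers of family 38. The genes named for their ratio were chosen after their values were seen.

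**Figure D2:**
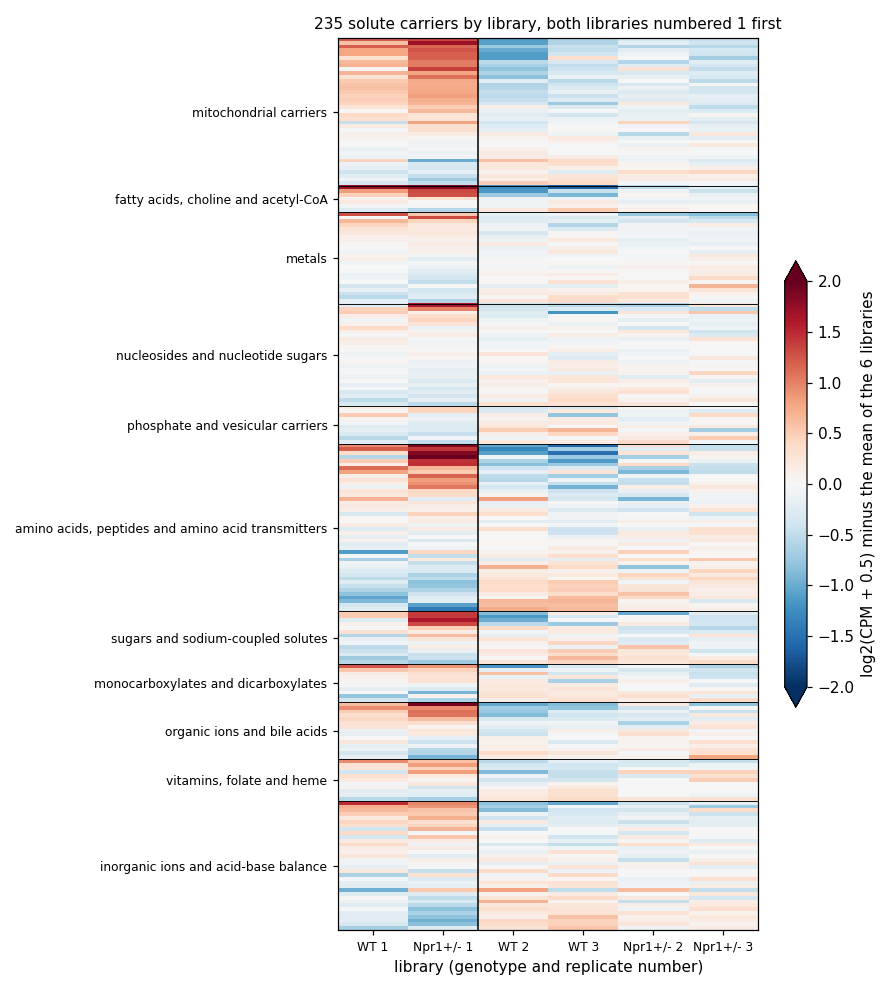
Log2(CPM + 0.5) of the 235 tested members minus each member's mean over the 6 libraries (colour, from -2 to 2, larger values shown at the ends of the scale), in rows by transport group and in columns by library. The 2 left columns, WT 1 and Npr1+/- 1, carry most of the deep colours: 72 members were higher in both than in any other library and 61 lower.

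No solute carrier passed the test between Npr1+/- and WT. With edgeR's quasi-likelihood test, 0 of 235 members tested reached both an adjusted p under 0.05 and a log2 fold change of 0.5 in size, as did 0% of all 13938 genes tested, and the smallest adjusted p of a member was 0.999. Slc10a4 and Slc29a4 had counts too low for the test. An unadjusted p under 0.05 was found for 5 members, or 2.13%, against 2.96% of all genes: 3 were higher in Npr1+/- aortas (1.28%, against 1.88%) and 2 lower (0.851%, against 1.08%). The members thus had no larger share than all genes. Their median log2 fold change was 0.01, as was that of all genes tested, with 124 values above 0 and 111 below. The 3 libraries of each genotype did not overlap for 8 members that were higher in Npr1+/- (3.40%, against 3.90% of all genes) and 8 that were lower (3.40%, against 3.58%). DESeq2 called 1 member, Slc52a3 (adjusted p = 0.0368), against 0.0942% of all genes.

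By transport group, the median log2 fold changes lay between -0.14 for the 10 carriers of monocarboxylates, of which 2 were above 0, and 0.13 for the 39 mitochondrial carriers, of which 25 were above 0. The carriers of inorganic ions had a median of -0.12 with 11 of 34 above 0, and those of amino acids 0.05 with 28 of 44 above 0. None of these medians was tested. The vitamin and heme carriers had a median of 0.12, those of fatty acids and choline 0.11, and those of organic ions 0.13. The medians of the metal carriers and the nucleotide sugar carriers were 0.00 and -0.005, those of the phosphate and vesicular carriers -0.04 and those of the sugar carriers -0.05.

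**Figure D3:**
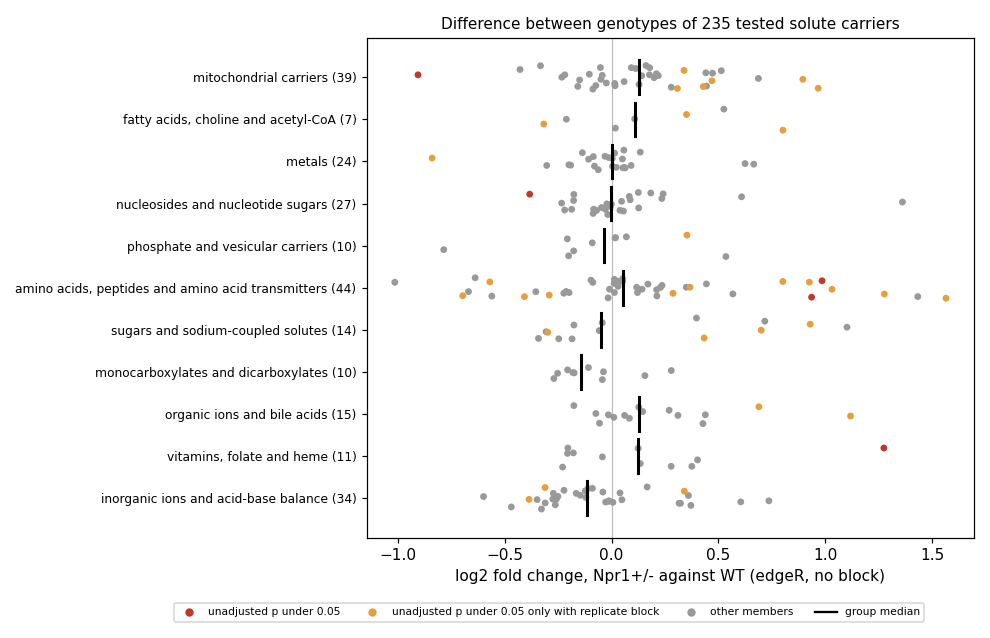
Log2 fold change of Npr1+/- against WT of the 235 tested members (edgeR without the replicate block), by transport group with the number tested in brackets. Red points are the 5 members with an unadjusted p under 0.05, orange points the 31 that had one only with the replicate block, and black bars the group medians, which lie between -0.14 and 0.13.

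The 5 members with an unadjusted p under 0.05 came from 4 transport groups, and in each the genotypes were apart. Slc52a3 (chr2:151996511-152009258 of GRCm38), a plasma membrane carrier of riboflavin, had 1.52, 1.00 and 1.38 FPKM in WT against 3.46, 2.76 and 3.05 FPKM in Npr1+/-. Every Npr1+/- library was above every WT library, with means of 1.30 ± 0.269 in WT and 3.09 ± 0.352 in Npr1+/- aortas (SD, n = 3). The difference (log2 fold change 1.27, standard error 0.26) had an unadjusted p of 0.00193 without the block and 7.5e-04 with it, and leaving out any 1 library kept it between 1.11 and 1.39. The other riboflavin carrier among the members, Slc52a2, had 6.14, 4.52 and 5.11 FPKM in WT against 6.34, 3.95 and 5.53 FPKM in Npr1+/-, with overlapping genotypes. Only Slc52a3 of the pair had an unadjusted p under 0.05, and the difference between the 2 carriers was not tested.

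Slc43a1 (chr2:84838855-84863586), a sodium-independent carrier of leucine and other large neutral amino acids, had 5.13, 4.82 and 2.88 FPKM in WT against 12.96, 6.72 and 7.42 FPKM in Npr1+/-. The lowest Npr1+/- library was above the highest WT library, and Npr1+/- 1 was the highest of all (log2 fold change 0.98, standard error 0.34, unadjusted p = 0.0235 without the block and 0.00108 with it). Slc1a2 (chr2:102658239-102790784), the main glutamate carrier of astrocytes, had the lowest mean FPKM of the 237 members, at 0.0700, 0.110 and 0.150 FPKM in WT against 0.160, 0.190 and 0.230 FPKM in Npr1+/-. Its 3 Npr1+/- libraries were above the 3 WT libraries by little, WT 3 and Npr1+/- 1 nearly touching (log2 fold change 0.94, standard error 0.33, unadjusted p = 0.0264 without the block and 0.0332 with it). Slc3a2 (chr19:8706882-8723369), the heavy chain shared by several amino acid exchangers, had 56.5, 50.2 and 50.04 FPKM in WT against 66.9, 63.97 and 63.3 FPKM in Npr1+/-. The genotypes were apart for Slc3a2 too, by a small difference (log2 fold change 0.29, standard error 0.13) with an unadjusted p of 0.0698 without the block and 0.0388 with it. The light chain Slc7a5 that pairs with Slc3a2 had a log2 fold change of 0.03 (standard error 0.31), with overlapping genotypes.

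Slc25a34 (chr4:141618819-141623891), a mitochondrial carrier related to the dicarboxylate carriers whose cargo is not settled, had 21.3, 23.7 and 19.7 FPKM in WT against 7.47, 14.1 and 12.6 FPKM in Npr1+/-. All Npr1+/- libraries were lower than all WT libraries and Npr1+/- 1 was the lowest, with means of 21.6 ± 1.99 in WT and 11.4 ± 3.47 in Npr1+/- aortas (SD, n = 3). The difference (log2 fold change -0.91, standard error 0.23) had an unadjusted p of 0.00622 without the block and 6.4e-04 with it. Without the libraries numbered 1 it was -0.70. Its nearest neighbour in name, the mitochondrial carrier Slc25a35, had 51.7, 13.7 and 22.2 FPKM in WT against 65.7, 27.2 and 22.7 FPKM in Npr1+/-, with both libraries numbered 1 on top and overlapping genotypes. Slc35b2 (chr17:45563913-45567671), which carries the sulfate donor of glycosaminoglycan chains into the Golgi apparatus, had 23.4, 19.1 and 17.8 FPKM in WT against 15.6, 13.1 and 17.1 FPKM in Npr1+/-. Npr1+/- libraries were again below WT, WT 3 being only slightly above Npr1+/- 3 (log2 fold change -0.38, standard error 0.15, unadjusted p = 0.0426 without the block and 0.0184 with it).

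**Figure D4:**
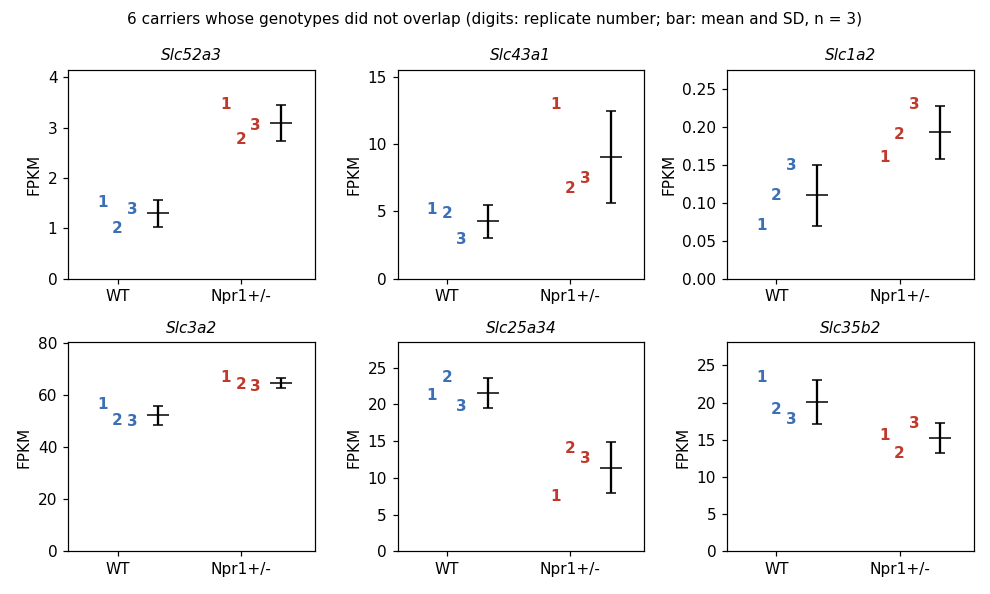
FPKM of the 6 members with an unadjusted p under 0.05 in either fit whose genotypes did not overlap; each digit is 1 library and gives its replicate number, and the bar is the mean with its SD (n = 3). Slc52a3, Slc43a1, Slc1a2 and Slc3a2 are higher in the Npr1+/- libraries, and Slc25a34 and Slc35b2 lower.

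The other 10 members whose genotypes were apart had an unadjusted p of at least 0.05 in both fits. Higher in the Npr1+/- libraries were the sodium and proton exchanger Slc9a5, the zinc carrier Slc39a2, the iodide carrier Slc5a5 and Slc10a3. Lower were the heme carrier Slc48a1, the calcium-regulated ATP carrier Slc25a23, the sodium and proton exchanger Slc9a8, the sialic acid exporter of lysosomes Slc17a5, Slc45a4 and Slc35g1. Slc48a1 had the highest level of them (log2 fold change -0.20, standard error 0.17).

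More members stood out when libraries were compared within replicate numbers, although whether numbers 2 and 3 mark true pairs is not settled. With the replicate number as a block, 36 members (15.3%) had an unadjusted p under 0.05, against 12.4% of all genes: 25 were higher in Npr1+/- (10.6%, against 7.36%) and 11 lower (4.68%, against 5.09%). Still 0 members (0% of all genes) passed the adjusted threshold, and the smallest adjusted p of a member was 0.0664. In all 3 replicate numbers, 45 members (19.1%) were higher in Npr1+/- than in WT, against 17.5% of all genes, and 46 (19.6%) lower, against 16.9%. Of the 25 members higher with the block, 17 were also higher in both libraries numbered 1 than in the other 4, and of the 11 lower, 7 were lower in both. No share of all genes stands beside these counts of 17 and 7, so they are not read as a result about the members. DESeq2 with the block called 8 members, against 1.81% of all genes: Slc7a10, Slc1a3, Slc27a1, Slc52a3, Slc43a1, Slc1a5 and Slc25a1 higher and Slc25a34 lower. The members named from here to the promoters were chosen after their values were seen.

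Slc7a10, a light chain for small neutral amino acids that is found in brain and on white fat cells, had 5.66, 1.88 and 1.35 FPKM in WT against 15.6, 5.04 and 4.82 FPKM in Npr1+/-. In all 3 replicate numbers Npr1+/- was well above WT, while WT 1 stood above Npr1+/- 2 and 3 (edgeR with the block: log2 fold change 1.59, standard error 0.17, unadjusted p = 2.7e-05, adjusted p = 0.0664). Slc1a3, the glutamate and aspartate carrier of glia, had 17.04, 4.20 and 2.72 FPKM in WT against 30.7, 10.5 and 6.23 FPKM in Npr1+/-. The same order held, with both libraries numbered 1 on top and Npr1+/- above WT in each number (edgeR with the block: log2 fold change 1.13, standard error 0.13, unadjusted p = 3.4e-05, adjusted p = 0.0664). Slc27a1, the fatty acid carrier of fat and muscle, had 68.7, 30.3 and 24.9 FPKM in WT against 118, 50.2 and 45.1 FPKM in Npr1+/-, in the same order once more (edgeR with the block: log2 fold change 0.79, standard error 0.12, unadjusted p = 1.9e-04, adjusted p = 0.0834). For these 3 genes the genotypes overlapped through WT 1. The summed CPM of the 8 fat markers was 7101, 1612 and 1597 CPM in WT against 13055, 3573 and 3117 CPM in Npr1+/-, which is 184%, 222% and 195% of WT within the replicate numbers, and its part in these carriers' differences was not tested. Among these markers, Lep and Pparg were lower in Npr1+/- in number 3, and the rest were higher in each number. The 8 Schwann cell markers, a glial type, summed to 99.99, 62.7 and 61.8 CPM in WT against 285, 72.3 and 89.3 CPM in Npr1+/-, or 285%, 115% and 144% of WT within the numbers, and their part in the difference of Slc1a3 was not tested.

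**Figure D5:**
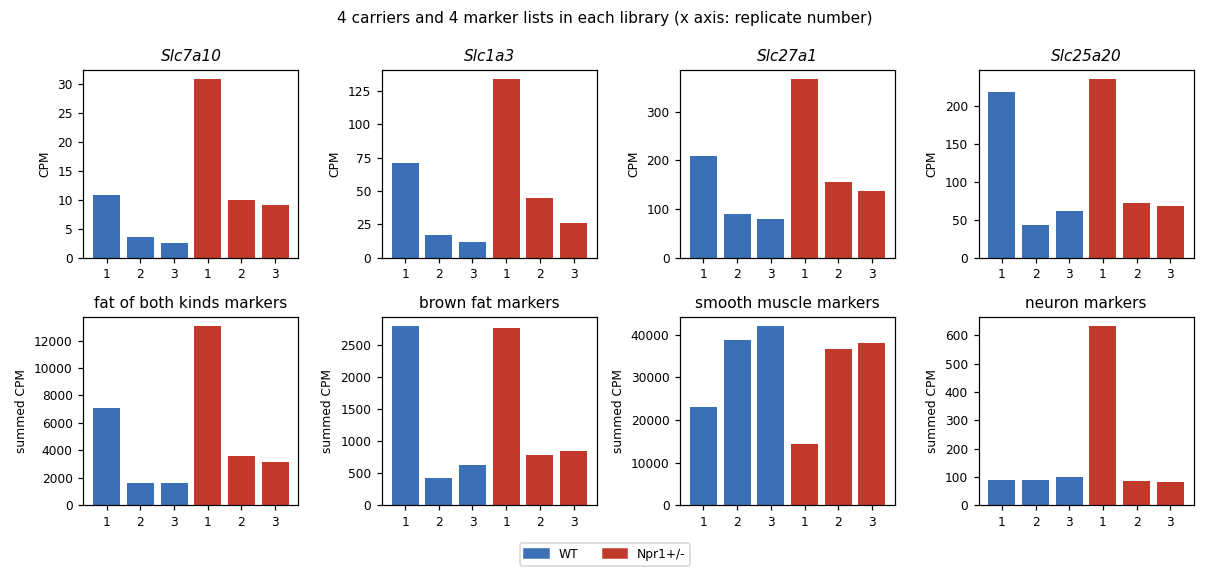
CPM of 4 carriers (top row) and summed CPM of 4 marker lists (bottom row) in each library, with the replicate number on the x axis and bars starting at 0. Slc7a10, Slc1a3 and Slc27a1 and the fat markers are highest in Npr1+/- 1 and, within each number, higher in Npr1+/- than in WT; Slc25a20 and the brown fat markers are high in both libraries numbered 1; smooth muscle markers are lowest there, and neuron markers are high in Npr1+/- 1 alone.

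Slc1a5, Slc25a1 and Slc2a4 were also higher with the block. Slc1a5 was highest in Npr1+/- 1 and second in WT 1 (edgeR with the block: log2 fold change 0.72, standard error 0.18, unadjusted p = 0.00416, adjusted p = 0.181). The citrate carrier Slc25a1 had the largest absolute gap, 523 against 252 FPKM between the libraries numbered 1 (edgeR with the block: log2 fold change 0.74, standard error 0.20, unadjusted p = 0.00648, adjusted p = 0.21). Slc2a4 had 149 against 86.3 FPKM in number 1 and nearly equal values of 45.7 and 45.8 in number 3. The dicarboxylate carrier Slc25a10, the glutamate carrier Slc25a22 and the NAD carrier Slc25a51 were further mitochondrial members higher with the block, at unadjusted p-values of 0.0132, 0.0137 and 0.0488. Slc25a20, by contrast, had close values of 129 FPKM in Npr1+/- 1 and 124 in WT 1, and an edgeR unadjusted p of 0.0649 with the block. The summed brown fat markers were also close there, at 2773 and 2795 CPM, and their part was not tested. Taken singly, Dio2, Cox7a1 and Ppargc1a were lower in Npr1+/- 1 than in WT 1, and Ucp1, Cidea and Elovl3 were higher.

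Other members higher with the block carried amino acids, vitamins and organic cations. The large neutral amino acid exchanger Slc7a8 had 2.96, 1.48 and 0.830 FPKM in WT against 5.94, 2.16 and 1.94 FPKM in Npr1+/-, and the biotin and pantothenate carrier Slc5a6 4.94, 3.16 and 2.57 FPKM in WT against 11.5, 5.13 and 3.52 FPKM in Npr1+/-. Npr1+/- was above WT within each number for both, with log2 fold changes of 0.91 (standard error 0.20) and 0.81 (standard error 0.19). Slc22a4, a carrier of ergothioneine, and Slc22a23, whose cargo is not settled, had 0.66 and 0.92, and Slc6a13, a GABA carrier of the periphery, 1.15.

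Most members lower with the block were also low in both libraries numbered 1, a count that stands beside no share of all genes. The sodium-coupled neutral amino acid carrier Slc38a1 had 3.80, 7.57 and 7.19 FPKM in WT against 2.15, 5.26 and 5.16 FPKM in Npr1+/- (edgeR with the block: log2 fold change -0.60, standard error 0.12, unadjusted p = 0.00107, adjusted p = 0.133). The proline carrier Slc6a7 had 4.42, 9.02 and 7.68 FPKM in WT against 1.88, 5.68 and 5.54 FPKM in Npr1+/- (edgeR with the block: log2 fold change -0.78, standard error 0.16, unadjusted p = 0.00182, adjusted p = 0.142). Npr1+/- was below WT in every number for both, and Npr1+/- 1 was the lowest library. The glycine carrier Slc6a9, the sodium and calcium exchangers Slc8a1 and Slc8a2 and the choline-transporter-like Slc44a2 had the same order, with log2 fold changes of -0.44, -0.34, -0.44 and -0.31. The summed smooth muscle markers were at 61.8%, 94.5% and 90.4% of WT within numbers 1 to 3, and their part was not tested. Among these markers, Des was higher in Npr1+/- in each number, Acta2 and Cnn1 were higher in number 2 only, and the rest were lower in each. Slc35b2, Slc25a34 and the glucose carrier Slc2a8 were neither low nor high in both libraries numbered 1. The iron exporter Slc40a1 was lower in Npr1+/- in each number (-0.86, standard error 0.29) but high in both libraries numbered 1, at 2.10, 0.700 and 0.710 FPKM in WT against 1.14, 0.410 and 0.380 FPKM in Npr1+/-. The 8 macrophage markers, cells known to be rich in Slc40a1, summed to 547 and 390.0 CPM in WT 1 and Npr1+/- 1 against 221 to 351 in the other 4. Within the numbers they were at 71.3%, 76.6% and 123% of WT, so number 3 went the other way from Slc40a1, and their part was not tested.

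The 250 bases before the start are printed for Slc1a3 and Slc25a1, to show the promoters behind carriers that DESeq2 called with the block. Of those 8 carriers, 6 had a promoter listed by RefSeq, and 4 of these were passed over because the window reached into the gene's own bounds or an annotated exon. The sequences are from RefSeq on GRCm38.p6, 5′ to 3′ on the strand of the gene: chr15:8710808-8711057 on the minus strand and chr16:17928220-17928469 on the minus strand. No exon of the GENCODE annotation lies in either window. Capitals mark matches on either strand to 4 motifs, none of which overlap here. The core site of nuclear receptors was searched as AGGTCA, the E box bound by basic helix-loop-helix factors was searched as CACGTG, the GC box bound by Sp factors was searched as GGGCGG, and the TATA box of core promoters was searched as TATAAA.
Slc1a3: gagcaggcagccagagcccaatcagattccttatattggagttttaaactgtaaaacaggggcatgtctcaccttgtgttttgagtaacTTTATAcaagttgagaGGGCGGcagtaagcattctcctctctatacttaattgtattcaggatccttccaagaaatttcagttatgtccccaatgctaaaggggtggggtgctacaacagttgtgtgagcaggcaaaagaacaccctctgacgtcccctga
Slc25a1: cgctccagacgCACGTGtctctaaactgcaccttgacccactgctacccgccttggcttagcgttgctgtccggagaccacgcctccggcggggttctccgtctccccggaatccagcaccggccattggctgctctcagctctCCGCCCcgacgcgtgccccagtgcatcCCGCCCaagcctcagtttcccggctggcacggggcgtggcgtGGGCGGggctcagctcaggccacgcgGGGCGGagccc
Slc1a3 held 1 GC box and 1 TATA box, and Slc25a1 4 GC boxes and 1 E box. Of the 11013 tested genes with a listed promoter, 57.6% held the GC box in the same window, 10.7% the core site, 8.23% the E box and 6.64% the TATA box. Of the 182 members with one, 62.6% held the GC box, 10.4% the core site, 11.5% the E box and 6.04% the TATA box. A match describes the letters only.

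A list was made of 32 carriers with known roles in vessel wall or muscle. Without the block, 0 of them had an edgeR unadjusted p under 0.05, against 2.96% of all genes. They had 14 log2 fold changes above 0 and a median of -0.03. With the block, 5 had an unadjusted p under 0.05 and were higher (Slc1a5, Slc2a4, Slc3a2, Slc5a3 and Slc27a1) and 3 were lower (Slc8a1, Slc40a1 and Slc44a2), against 7.36% and 5.09% of all genes. In both libraries numbered 1, 12 of the 32 were above the other 4 libraries and 14 below, against 23.9% and 24.1% of all genes. The glucose carrier Slc2a1 had a log2 fold change of -0.18 (standard error 0.23), the lactate carriers Slc16a1 and Slc16a3 both -0.04, and the arginine carrier Slc7a1 0.17 (standard error 0.36). Slc4a4, the sodium bicarbonate cotransporter, had 13.8, 2.72 and 2.30 FPKM in WT against 9.22, 3.41 and 4.29 FPKM in Npr1+/- and a log2 fold change of -0.11. WT 1 was the highest library for Slc4a4, and without it the log2 fold change was 1.196.

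Proteins that work with the carriers were described in the same way. Of 19 partner proteins and kinases, 1 had an edgeR unadjusted p under 0.05 without the block, against 2.96% of all genes. This was the scaffold Slc9a3r2, which anchors sodium and proton exchangers. It had 46.8, 26.1 and 40.2 FPKM in WT against 67.4, 66.4 and 61.3 FPKM in Npr1+/-. All Npr1+/- libraries were above WT for Slc9a3r2 (log2 fold change 0.78, standard error 0.22, edgeR unadjusted p = 0.0111). Of 28 tested carriers of the superfamily without an Slc symbol, 1 had an edgeR unadjusted p under 0.05, again against 2.96% of all genes. That was Spns2, the sphingosine 1-phosphate exporter of endothelium, with 5.12, 3.37 and 2.71 FPKM in WT against 11.2, 7.64 and 6.87 FPKM in Npr1+/-. Npr1+/- was above WT for Spns2 in every library (log2 fold change 1.18, standard error 0.30, edgeR unadjusted p = 0.00631). The 11 endothelium markers summed to 1052, 719 and 1128 CPM in WT against 1774, 1252 and 1172 CPM in Npr1+/-, 10 of them with a log2 fold change above 0 and 4 with an unadjusted p under 0.05, and their part in these differences was not tested. With the block, 9 of the 28 had an unadjusted p under 0.05 and were higher and 1 was lower, against 7.36% and 5.09% of all genes, and none passed the adjusted threshold. Among the 9, named after their values were seen, were the mitochondrial pyruvate carriers Mpc1 and Mpc2 and the uncoupling proteins Ucp1, itself one of the brown fat markers, and Ucp2. Of the 28, 14 were above in both libraries numbered 1 (23.9% of all genes were), these 4 included. The summed fat markers were at 184%, 222% and 195% of WT within the replicate numbers and the brown fat markers at 99.2%, 189% and 133%, and their part was not tested.

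A few members were far higher in Npr1+/- 1 than in any other library, and were picked with their values in view. Slc10a4, a protein of synaptic vesicles, had 0, 0 and 0 FPKM in WT against 7.92, 0.120 and 0 FPKM in Npr1+/-, and the monoamine carrier Slc29a4 had 0.200, 0.230 and 0.160 FPKM in WT against 1.97, 0.120 and 0.330 FPKM in Npr1+/-. Both were too low in the other 5 libraries to be tested. Slc7a14 and Slc35f1, both known from neural tissue, had 0.410, 0.600 and 0.350 FPKM in WT against 2.53, 0.370 and 0.680 FPKM in Npr1+/- and 0.310, 0.260 and 0.230 FPKM in WT against 1.34, 0.210 and 0.480 FPKM in Npr1+/-. For Slc29a4, Slc7a14 and Slc35f1, Npr1+/- 3 was also above each WT library, by less. Among the genes left out by name, the noradrenaline carrier Slc6a2 had 0.420, 0.510 and 0.180 FPKM in WT against 17.4, 0.470 and 0.250 FPKM in Npr1+/- and the vesicular monoamine carrier Slc18a2 0.680, 1.30 and 1.00 FPKM in WT against 10.1, 1.10 and 1.33 FPKM in Npr1+/-, again high in Npr1+/- 1, the library in which the neuron markers were highest. Of the other 5, the zinc carrier Slc39a1 and the sugar carrier Slc50a1 had means of 54.99 and 56.9 FPKM and overlapping genotypes, Slc27a3 4.60 FPKM, the red cell anion exchanger Slc4a1 0.408 and the vesicular carrier Slc18a1 0.112.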

How the data were processed

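RNA of whole mouse aortas was measured in 6 libraries, grouped by the genotype in the labels. The deposited columns are headed WT and Knockdown with a number, and the Knockdown columns were taken as the Npr1+/- libraries, the only other genotype, by replicate number. Reads were filtered with SOAPnuke and aligned to a set of coding genes with Bowtie2, and the authors deposited the estimated counts of RSEM, without normalization, for 18191 genes. The deposited columns of levels name no unit and were read as the authors' FPKM, because within a gene they scale with the count divided by the library total. RSEM divides reads that fit several genes, so members with close relatives, such as Slc25a4 and Slc25a5, are less certain. The submitters' processing notes name mm10 and DESeq2 1.4.5. The authors' 4 columns of means were not used. Symbols of 18070 genes and coordinates came from RefSeq on GRCm38.p6.

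Estimated counts were rounded and tested with edgeR 4.0.16 in R 4.3.3 (TMM scaling, minimum count 10, quasi-likelihood test, Benjamini-Hochberg adjustment over 13938 genes). Standard errors are the log2 fold change divided by the root of F. The block adds the replicate number. Deviations of same-numbered libraries from their genotype means correlated at 0.64, 0.39 and 0.24 over genes. All were above the 0.1 required, and the numbers were taken as pairs. The swapped pairs, WT 3 with Npr1+/- 2 and WT 2 with Npr1+/- 3, reached 0.44 and 0.37. The check cannot decide how numbers 2 and 3 pair, because WT 1 and Npr1+/- 1 shift the genotype means of the others. Nothing in the labels says what a number shares. Alternatives were DESeq2 1.42.0, its size factors, no filter, limma 3.58.1 on log2(FPKM + 0.1) or log2(FPKM + 1), and leaving out libraries. Scripts were tested on simulated data. The members and lists were chosen with earlier results of these data known. Named were the 3 members of each transport group with the highest FPKM, the list of 32, members with an unadjusted p under 0.05 in either fit whose genotypes were apart, those next to the threshold and the 7 left out; others are said to be chosen after their values were seen. A few genes of these lists are not reported here. With 3 libraries against 3, an exact permutation test of 1 gene cannot give a p under 0.1.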

Additional observations from a re-analysis of the deposited data

How the results depend on the processing

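With 3 libraries a genotype and 2 that stand apart, the spread within genotypes limits what can be seen. The count of members past the adjusted threshold, 0, became 1 with DESeq2 and 8 with DESeq2 and the replicate block, and stayed 0 in edgeR with the block and under every other alternative run, including without each library. Members with an unadjusted p under 0.05 were 3 higher and 2 lower. They became 8 and 1 with DESeq2, 25 and 11 with the replicate block in edgeR, 25 and 7 with it in DESeq2, and 21 and 15 without both libraries numbered 1, where 11.5% of all genes had such a p. With limma on log2(FPKM + 0.1) and on log2(FPKM + 1), 1 was lower. Leaving out each library in turn gave 1 to 11 higher, the most without WT 1 and the fewest without WT 2, and 1 to 8 lower, again the most without WT 1 and the fewest without WT 2. Without Npr1+/- 3 the counts were 9 and 4, without Npr1+/- 2 there were 5 higher, and without Npr1+/- 1 there were 5 lower. Members whose genotypes were apart, 8 each way, became 52 and 52 without both libraries numbered 1, and 11 to 44 higher and 11 to 40 lower without each library in turn, as fewer libraries overlap less often. The most in both directions came without WT 1. Where no share of all genes is given for a count of members, the count is not read as a result about the members. The median log2 fold change of the members lay between -0.057, without Npr1+/- 1, and 0.028, without Npr1+/- 2. Of 1245 values of the 83 named members tested under alternatives, 97 had a changed sign. Among these members, Slc4a4 turned from -0.11 to 0.62 without both libraries numbered 1. Leaving out each library in turn gave -0.72 to 1.196 for Slc4a4, the highest without WT 1. The cause was not tested. Stronger calls came only from DESeq2: Slc52a3 passed in both of its fits, and Slc7a10, Slc1a3, Slc27a1, Slc25a34, Slc43a1, Slc1a5 and Slc25a1 passed with the block.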
